A study of Mus musculus with 9 samples.

Results

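The transcriptome of low-MYC fibroblasts was taken from 2 of the 9 samples of the series, the low-MYC RNA-seq replicates 1 and 2, and covers all 19769 genes that the expression table lists. The libraries were chosen by their label alone, with no measured value. The cells were primary mouse embryonic fibroblasts (MEFs), connective tissue cells grown from embryos, that carried the Myc-Egfp fusion on both alleles of the endogenous Myc gene (Myc-Egfp+/+). They were treated with 20 µM MG-132, an inhibitor of the proteasome, for 6 h, sorted by flow cytometry for low GFP intensity and seeded overnight before RNA was extracted. ERCC RNAs, synthetic transcripts that serve as a yardstick, were added in proportion to the number of cells, and libraries of polyadenylated RNA were prepared with a stranded kit. The replicates are technical, so the errors below measure the spread between libraries of one preparation of cells. No RNA-seq of cells without MG-132 was analysed here. The level of a stress gene is therefore a description of treated and sorted cells, and whether the drug, the sort or the culture changed it was not tested.

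MYC is a transcription factor that binds DNA together with MAX and is found at most active promoters. It is degraded within minutes to hours by the ubiquitin-proteasome system, in which ubiquitin marks a protein and the 26S proteasome cuts it up. Fibroblasts in culture are known for collagen-rich matrix, actin stress fibres and secreted growth regulators. Cells whose proteasome is blocked are known to switch on heat shock proteins through HSF1, new proteasome subunits through NRF1 (Nfe2l1), antioxidant genes through NRF2 (Nfe2l2) and the integrated stress response through ATF4.

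The deposited value of a gene is its normalized FPK, the fragments per kilobase assigned to it, scaled by the ERCC reads of its library. Normalized FPK summed to 46321 in replicate 1 and 48291 in replicate 2. Multiplied by the length of the gene on the genome, introns included, values of up to 10 reads came out as whole multiples of a single step, within 0.02 reads, for 82.1% and 82.2% of genes with several exons. Multiplied by the spliced length, at best 11.1% and 11.6% did. The deposited values were thus per kilobase of genomic span, and a gene with long introns has a lower value than its mRNA would give. The recovered reads, 93755800 in replicate 1 and 96330000 in replicate 2, give the depth of the libraries. From them, TPM, in which every library sums to the same total, was computed over the spliced length of a reference transcript, and levels of different genes are compared below in TPM unless normalized FPK is named. A gene at 0 could have had up to 3 expected reads in such a library, a limit that covers counting error only. Both replicates listed 34 genes at 0.

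A small set of genes made up much of the low-MYC transcriptome. The 10 most abundant genes held 16.8% ± 0.542 (SD, n = 2 technical replicates) of all normalized FPK, the top 100 held 48.1% ± 0.638 and the top 1000 held 79.1% ± 0.296. Counted from the top, 113 genes held 50% of the total, the last of which was Rpl14, a ribosomal protein gene. In TPM the same share was held by 379 genes, and in reads by 687 genes. Concentration was thus lower on both scales that do not divide by introns: the top 10 genes held 7.44% of TPM and 7.31% of reads. At least 1 normalized FPK was reached by 4142 genes, and at least 1 TPM by 12782 genes. The median gene had 0.140 normalized FPK, 5.79 TPM and 619 reads. At the very top by reads stood Thbs1, which encodes thrombospondin 1, a matrix glycoprotein, with 1.97% ± 0.0533 of all reads.

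**Figure D1:**
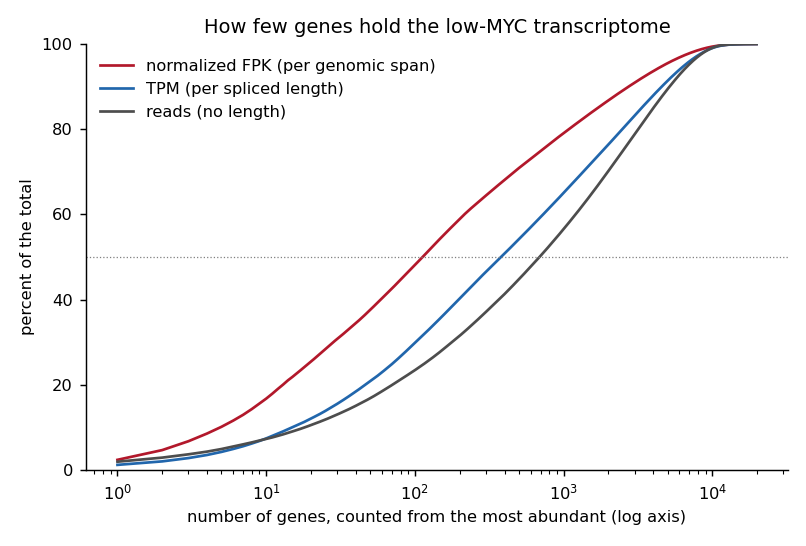
Cumulative percent of the low-MYC total (vertical axis) against the number of genes counted from the most abundant (horizontal log axis), as the mean of 2 replicates, for normalized FPK, TPM and reads. The dotted line at 50% is crossed at 113 genes in normalized FPK, 379 in TPM and 687 in reads.

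The most abundant transcripts belonged to translation, the actin cytoskeleton, iron storage, secreted matrix regulators and mitochondria. Eef1a1, the elongation factor that brings aminoacyl-tRNA to the ribosome, led at 12271 TPM in replicate 1 and 12286 in replicate 2. S100a6, a calcium-binding protein of growing fibroblasts, followed at 8019 and 8396 TPM. Thbs1 had 7916 and 7604 TPM. Eef1a1 lay far above the rest in both libraries, while S100a6 and Thbs1 came close to each other without overlap. Actb and Actg1, the cytoplasmic actins, stood at 7313 and 7256 TPM and at 6874 and 6977 TPM. Ftl1, the light chain of the iron store ferritin, had 7391 and 6957 TPM. The range of Ftl1 overlapped with those of both actins, so these libraries do not fix its place among them. Of the 40 genes that led in TPM, 16 were separated from the next gene in both replicates, and of the 40 that led in normalized FPK, 11 were. This separation covers the spread between libraries and not the choice of transcript length. TPM was also computed over the merged length of all exons of a gene. The ratio of TPM to that value was 0.659 at the 5th percentile of genes and 2.14 at the 95th. Of the top 100 genes by TPM, 80 were in the top 100 on both lengths.

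Secreted regulators ranked among them. Ccn2, connective tissue growth factor, stood at 3466 and 3549 TPM and Ccn1, its relative CYR61, at 1897 and 1871 TPM. These matricellular genes are known targets of YAP and of TGF-beta signalling. Spp1, osteopontin, had 2714 and 2603 TPM, and Timp1, an inhibitor of matrix metalloproteinases, had 2247 and 2209 TPM. By deposited normalized FPK the order was different, and the first place was held by Gm28437, a pseudogene, with 1089 in replicate 1 and 1194 in replicate 2. It was followed by mt-Atp8, a subunit of mitochondrial ATP synthase, with 1023 and 1139 normalized FPK, by mt-Co1, a core subunit of cytochrome c oxidase, with 917 and 1051, and by Actg1 with 833 and 874.

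**Figure D2:**
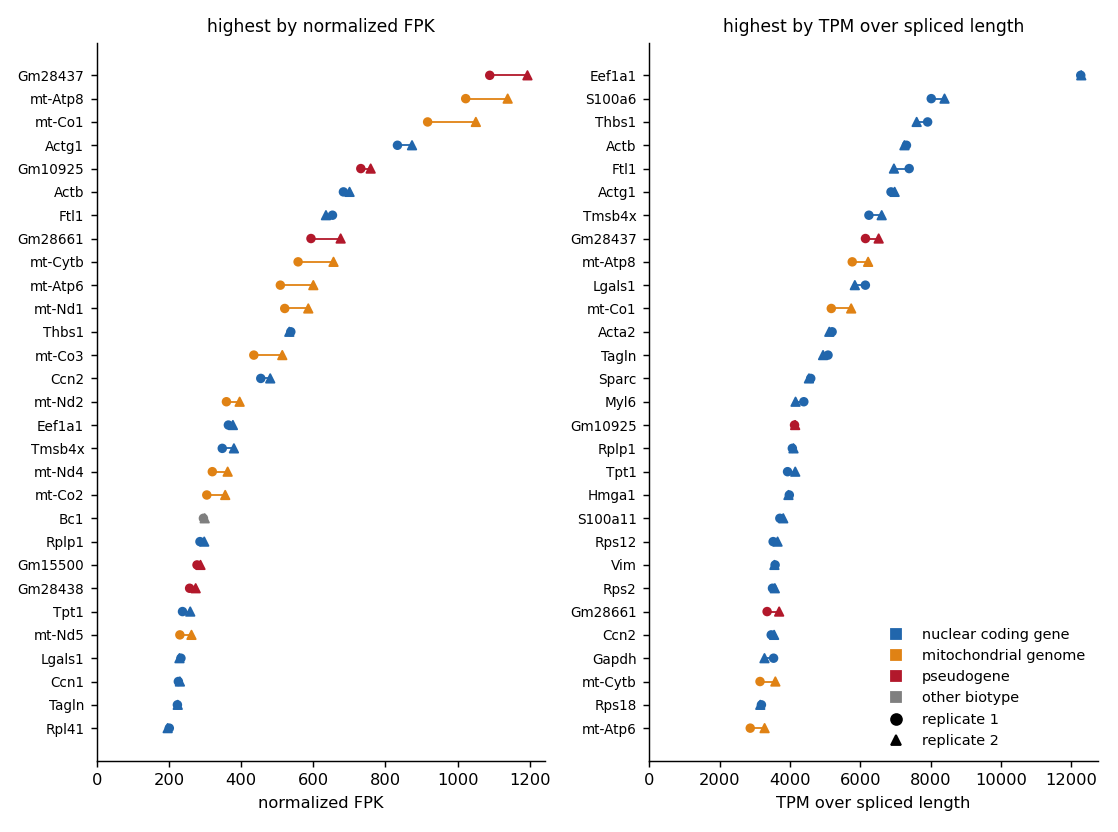
Genes among the 30 with the highest mean normalized FPK (left) and the 30 with the highest mean TPM (right) in low-MYC cells, with a circle for replicate 1 and a triangle for replicate 2 on a linear axis from 0, coloured by gene type. Mitochondrial genes and nuclear copies of mitochondrial DNA fill much of the normalized FPK panel, whereas Eef1a1, S100a6 and Thbs1 lead the TPM panel.

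Both scales shared 24 of their 40 leading genes and 73 of their leading 100. Across 19763 genes Spearman's rho between mean normalized FPK and mean TPM was 0.90, a description across genes of the same libraries, whose values share the reads. The median gene spanned 6.60 times its spliced length, and 7212 genes spanned at least 10 times theirs. Genes in the top 100 by normalized FPK had a median span of 2672 bp, against 16753 bp for all genes. The shift is plain for matrix genes: Sparc, a collagen-binding glycoprotein, was at rank 180 in normalized FPK and had 4591 and 4540 TPM. Anxa2, a membrane-binding annexin, was at rank 291 in normalized FPK with 3058 and 3051 TPM. Fgfr2, a receptor for fibroblast growth factors that spans 2960900 bp in the table for 3323 bp of spliced transcript, moved from rank 16194 to rank 4867. Foxp1, a forkhead transcription factor, moved from rank 11083 to 1256 and Rbms3, an RNA-binding protein, from 13334 to 1973. Genes of a single exon moved the other way, for example Foxc1, a forkhead factor of mesenchyme, from rank 3604 to 9545.

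**Figure D3:**
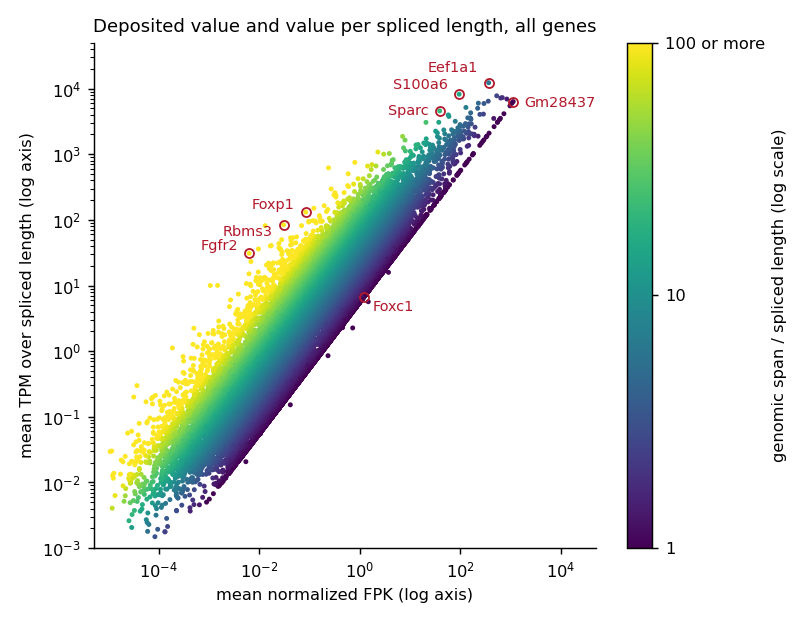
Mean TPM against mean normalized FPK for each gene at or above 0.00001 normalized FPK in low-MYC cells (both log axes), coloured by genomic span over spliced length. Genes of a single exon form the lower edge, and genes with long introns such as Fgfr2, Rbms3 and Foxp1 lie far above it.

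The mitochondrial genome supplied a large part of the deposited signal. Its 16 listed genes held 12.7% ± 0.828 of normalized FPK, 3.33% ± 0.239 of TPM and 1.33% ± 0.0991 of reads. The replicates differed more here than in most groups, with 12.1% of normalized FPK in replicate 1 and 13.2% in replicate 2. Of the genes that encode subunits of the respiratory chain, mt-Atp8 was highest with 5772 and 6223 TPM and mt-Nd4l, a small subunit of complex I, was lowest with 465 and 560 TPM. This order rests on how reads were split with the nuclear copies described below. Gm28437, a copy of mt-Co3, was given 70.6% of the reads of that pair. Gm10222, a copy of mt-Nd4l, was given 65.3% of its pair. The mitochondrial ribosomal RNAs mt-Rnr2 and mt-Rnr1, which a poly(A) selection captures poorly, had 205 and 215 TPM and 164 and 177 TPM. Nuclear genes of the respiratory chain, 78 in all, had a median of 181 TPM, and Atp5b, the catalytic subunit of ATP synthase, led them at 1323 and 1342 TPM.

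Beside these stood a block of nuclear pseudogenes that copy mitochondrial DNA. Gm28437 and its neighbours Gm10925, Gm28661, Gm28438, Gm10222, Gm29216 and Gm28439 lie together at chr1:24611535-24616197 (GRCm38, mm10), a stretch of 7 unprocessed pseudogenes. Over their aligned length 4138 of 4140 bases were identical to the mitochondrial genome, and 5 of the 7 showed no difference at all. The differences are shown because they are the only bases of the aligned stretches at which a read could tell the nuclear copy from the mitochondrial gene. Each line gives the same stretch, read in the plus direction of chromosome 1, with the differing base in capitals, taken from the RefSeq genome sequence GRCm38.p6.
Gm28438, nuclear copy chr1:24613087-24613119 (plus strand): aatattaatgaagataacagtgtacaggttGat
Gm28438, matching mitochondrial stretch chrM:9459-9491 (minus strand): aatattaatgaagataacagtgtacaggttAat
Gm29216, nuclear copy chr1:24616155-24616188 (plus strand): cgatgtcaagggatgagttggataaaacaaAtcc
Gm29216, matching mitochondrial stretch chrM:6390-6423 (minus strand): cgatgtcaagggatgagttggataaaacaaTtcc
The cluster held 6.35% ± 0.205 of normalized FPK, 1.67% of TPM and 0.483% of reads, which was 99.2% of the normalized FPK of all 82 unprocessed pseudogenes. Gm28437, a copy of mt-Co3, took 70.6% of the reads assigned to that pair. Of the copies with a differing base, Gm28438, a copy of mt-Nd3, took 71.9% of its pair, and Gm29216, a copy of mt-Co1, took 0.860%. Gm29216 spans 492 bp and mt-Co1 1545 bp, so the share of that pair compares unlike lengths. Gm28439, identical to part of mt-Nd4 along its whole length, took 2.97% of its pair. Quantification by expectation-maximization splits reads that fit several genes. The share given to each copy is therefore uncertain, and with it the level of the matching mitochondrial gene. How the share was decided for these pairs was not tested. Counted with the mitochondrial genome, the cluster brought the mitochondrial sequence to 19.02% ± 1.03 of normalized FPK.

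Protein-coding genes, 15118 or 76.5% of the table, held 83.8% ± 0.0187 of normalized FPK, 95.1% of TPM and 98.2% of reads. Processed pseudogenes, intronless copies of mRNAs, held 5.91% ± 0.130 of normalized FPK over 1510 genes. Transcribed processed pseudogenes held a further 1.47% ± 0.0187. The processed pseudogenes were led by Gm7536 with 181 and 186 normalized FPK, and the transcribed ones by Gm15500 with 277 and 287. Further copies, named after mRNAs of translation, followed Gm7536: Rps23-ps1 had 125 and 142 normalized FPK, Tpt1-ps3 had 134 and 127, and Rpl3-ps1 had 126 and 121. Rps23, Tpt1 and Rpl3 are the parents of these 3, so their levels share reads with the parent and are uncertain. Among genes with a mean of at least 1 normalized FPK, the largest fold between replicates was that of Rpl30-ps9, with 0.542 normalized FPK in replicate 1 and 1.62 in replicate 2, chosen after its values were seen. AY036118, a lncRNA on chromosome 17, also moved between libraries, with 42.9 and 24.9 normalized FPK, or 9104 and 5259 reads.

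Long noncoding RNAs (lncRNAs) were 2161 genes and held 1.76% ± 0.0782 of normalized FPK and 0.879% of TPM. Bc1, a small RNA polymerase III transcript known from neurons that carries its own A-rich tract, led them with 295 and 299 normalized FPK (1666 and 1632 TPM). Malat1, a nuclear RNA of splicing speckles, had 579 and 629 TPM. Gas5, a host of small nucleolar RNAs, had 326 and 312 TPM, and H19, an imprinted RNA of embryonic mesenchyme, had 263 and 244 TPM. Pvt1, the neighbour of Myc on chromosome 15, had 8.86 and 8.90 TPM. Of 17 lncRNAs followed by name, 13 reached 1 TPM, and those below it included Hotair, at 0.0367 and 0.0713 TPM. Of all 2161 lncRNA genes only 462 reached 1 TPM, and their median was 0.249 TPM. The gene annotated as CT010467.1, an rRNA gene on chromosome 17, had 2896 and 2911 TPM. Histone genes, most of whose mRNAs end in a stem-loop and not in poly(A), had a median of 0.422 TPM over 41 genes, and the highest of the list was H1f0, whose mRNA is polyadenylated.

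Fibroblast markers were abundant, as the label of the cells has it. Of 33 fibroblast genes, 32 reached 1 TPM, 22 reached 100 TPM, and the list held 2.03% ± 0.0161 of normalized FPK and 3.51% ± 0.00989 of TPM. Its median was 338 TPM, against 5.79 TPM for all genes and 12.8 TPM for protein-coding genes. Tuba1a, an alpha-tubulin of microtubules, had 1770 and 1771 TPM. Myh9, the heavy chain of non-muscle myosin IIA, had 943 and 911 TPM, and Col1a1, the alpha-1 chain of type I collagen, had 700 and 671 TPM. The lowest of the 3, Col1a1, was at percentile 98.9 of all genes in TPM. In the matrix group Sparc was highest, Bgn, the proteoglycan biglycan, had 2845 and 2804 TPM, and Fn1, fibronectin, had 1739 and 1762 TPM. Lum, the proteoglycan lumican, was lowest at 11.9 and 11.5 TPM. On the cell surface Itgb1, the beta-1 integrin, had 2224 and 2275 TPM, Thy1, a classical fibroblast antigen, had 1012 and 987 TPM, and Pdgfra, a receptor for platelet-derived growth factor, had 72.4 and 71.8 TPM. Vim, the intermediate filament of mesenchymal cells, had 3577 and 3558 TPM. Prrx1, a homeobox factor of mesenchyme, led the transcription factors at 341 and 335 TPM, and Tcf21, a factor of visceral and cardiac mesenchyme, was the single listed marker under 1 TPM, at 0.194 and 0.264 TPM.

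Collagen chains covered a wide range. Of 43 chains, 23 reached 1 TPM and 11 reached 100 TPM. Col1a2, the partner of Col1a1 in type I collagen, led with 1060 and 1000 TPM. Col4a1, a chain of basement membrane collagen, had 783 and 724 TPM, and Col3a1, the fibrillar collagen of soft tissues, had 150 and 134 TPM. Col22a1, a collagen of tissue junctions, was lowest at 0.0167 and 0.0271 TPM. Collagen genes are long and have many introns, and the list held 0.249% ± 0.0108 of normalized FPK but 1.41% ± 0.0486 of reads.

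Markers of other cell types were rare. Of 98 such genes, 62 had a row in the table, 20 reached 1 TPM and 2 reached 100 TPM. Together they held 0.0574% ± 0.000816 of TPM. The 98 leave out the neuronal marker Tubb3, which was counted with the tubulins. The highest were Col2a1, the collagen of cartilage, with 182 and 173 TPM, Mcam, an adhesion molecule of pericytes, with 123 and 124 TPM, and Acta1, skeletal actin, with 91.2 and 91.8 TPM. Other chondrocyte genes were low, with Acan, the aggrecan of cartilage, at 0.477 and 0.525 TPM. Tubb3, a tubulin used as a neuronal marker, had 73.5 and 70.6 TPM, while Elavl3, an RNA-binding protein of neurons, had 0.0098 and 0.0238 TPM. Krt19, a keratin, had 30.03 and 30.7 TPM, while Epcam, the epithelial adhesion molecule, had 0.157 and 0.129 TPM. In each of these lists a single gene or a pair carried nearly all of the level.

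Macrophage markers summed to 10.5 TPM in replicate 1 and 14.8 in replicate 2 over 17 genes, of which 4 reached 1 TPM. Cd68, a lysosomal protein found at low level outside macrophages, was highest at 5.97 and 6.96 TPM. Ptprc, the pan-leukocyte CD45, was at 0.0387 and 0.0564 TPM. Lyz2, lysozyme, differed most in TPM between the libraries, at 0.653 and 2.94 TPM. Adgre1, Tyrobp and C1qa were listed at 0 in replicate 1. Endothelial genes were led by Kdr, the VEGF receptor, at 6.997 and 6.84 TPM, with Pecam1 at 0.0660 and 0.0401 TPM. Of the erythroid, lymphocyte and pluripotency genes with a row, 0 reached 1 TPM.

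**Figure D4:**
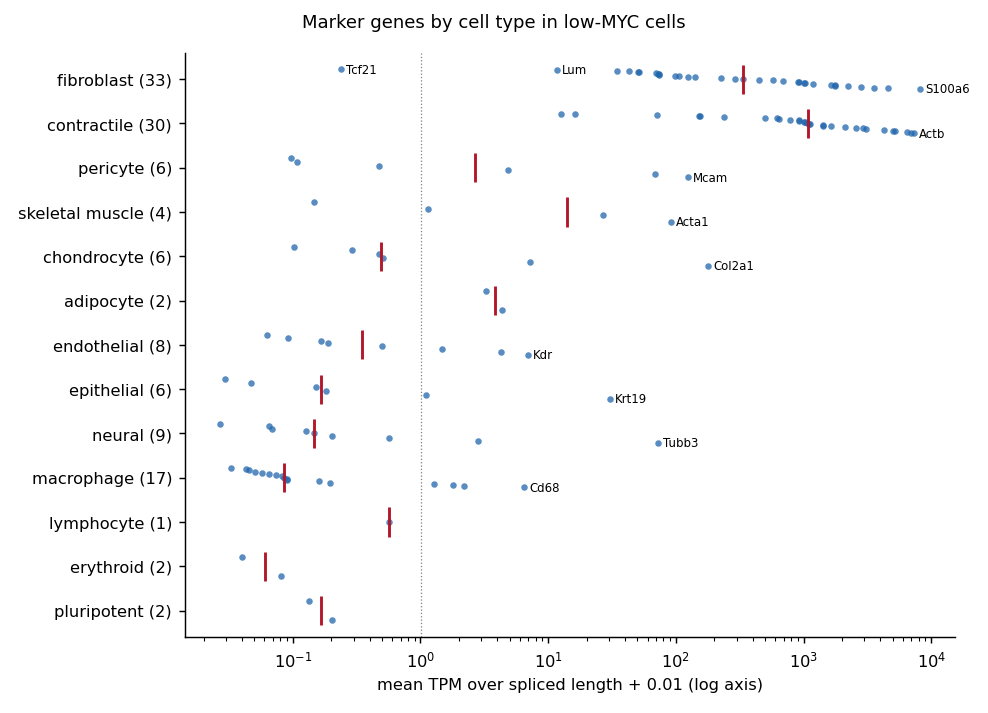
Mean TPM (+ 0.01, log axis) of each marker gene in low-MYC cells, by cell type, with a red bar at the median of the list and the number of genes in brackets. Fibroblast markers have a median of 338 TPM and macrophage markers one of 0.0746 TPM.

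Genes of the sex chromosomes and of body position were also read. Xist, the RNA that silences the inactive X chromosome, had 0.0151 and 0.0226 TPM, or 11 and 17 reads. Ddx3y, an RNA helicase gene on the Y chromosome, had 70.4 and 69.2 TPM, and all 4 Y-linked genes followed exceeded 1 TPM. Of 37 Hox genes with a row, 32 reached 1 TPM, led by Hoxb9 with 35.4 and 38.3 TPM. Hoxc6 and Hoxc8, also genes of the trunk, had 34.3 and 32.3 TPM and 24.3 and 25.5 TPM, while Hoxc12 was lowest at 0.0953 and 0.185 TPM. Tbx15, a T-box factor of limb and trunk mesenchyme, had 65.0 and 65.4 TPM. All 15 imprinted growth genes reached 1 TPM, from Zim1, a zinc finger gene, at 1.599 and 1.58 TPM to Gnas, the stimulatory G protein alpha subunit, at 555 and 545 TPM. Igf2, a fetal growth factor, had 192 and 193 TPM.

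Actin, actin-binding and myosin genes, listed together as contractile genes, formed one of the largest functional groups. The 30 listed genes held 6.78% ± 0.0422 of normalized FPK and 6.06% ± 0.0315 of TPM. Their median was 1085 TPM, and 27 exceeded 100 TPM. Actins held 1.96% of TPM, actin-binding genes 3.35% and myosins 0.752%, and the list includes cytoplasmic actins and binders of actin monomers. Beside the cytoplasmic actins, Acta2, the smooth muscle actin that marks myofibroblasts, had 5198 and 5119 TPM. Tmsb4x, which binds actin monomers, had 6246 and 6609 TPM, and Tagln, the calponin family member SM22, had 5082 and 4942 TPM. Myl6, a myosin light chain, led the myosins at 4394 and 4159 TPM, whereas Myh11, the smooth muscle myosin heavy chain, was lowest at 13.2 and 11.9 TPM. Cnn1, the calponin of differentiated smooth muscle, was lowest among the actin-binding genes at 156 and 149 TPM. Tubulins held 0.699% of TPM, led by Tuba1b at 1914 and 1911 TPM and Tubb5 at 1374 and 1353 TPM. Actins and tubulins are families of similar sequence, so reads may have been split among their members.

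Genes of this kind are known to be driven by serum response factor, which binds the CArG box. Promoters were read from 250 bases before to 50 bases after the start, from RefSeq (GRCm38.p6), for 23 of the contractile genes. A CArG box on either strand was present in 4 of them, Actg1, Myl9, Cnn2 and Vcl, which is 17.4% against 1.27% of 10659 promoters of protein-coding genes. GGAATG, the core of the site of TEAD factors, the partners of YAP, was present on either strand in 9 of 23, or 39.1%, against 12.1% of all. A match is a description of letters and not a bound site. The 4 promoters with a CArG box are shown with that box in capitals, and in Actg1 a CCAAT is capitalized as well. The CCAAT in the stretches of Vcl and Cnn2 and the GGAATG in that of Vcl are left in lower case. The stretch of Ccn1 is shown for its GGAATG core, which reads CATTCC on this strand, and its TATAAA near the start.
Actg1 chr11:120348496-120348645 (minus strand): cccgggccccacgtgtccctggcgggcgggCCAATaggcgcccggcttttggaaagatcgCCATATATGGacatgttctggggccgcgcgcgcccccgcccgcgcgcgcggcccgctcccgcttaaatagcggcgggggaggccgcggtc
Vcl chr14:20929148-20929297 (plus strand): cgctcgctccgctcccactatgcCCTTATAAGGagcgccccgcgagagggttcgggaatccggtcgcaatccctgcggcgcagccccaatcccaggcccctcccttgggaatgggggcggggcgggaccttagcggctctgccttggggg
Myl9 chr2:156775264-156775413 (plus strand): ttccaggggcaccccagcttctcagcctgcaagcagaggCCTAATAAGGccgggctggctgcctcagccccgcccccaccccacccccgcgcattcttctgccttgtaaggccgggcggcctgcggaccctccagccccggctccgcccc
Cnn2 chr10:79988450-79988599 (plus strand): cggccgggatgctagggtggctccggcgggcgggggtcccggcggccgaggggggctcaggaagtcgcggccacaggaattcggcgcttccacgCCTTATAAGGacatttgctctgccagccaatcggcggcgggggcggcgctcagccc
Ccn1 chr3:145649986-145650135 (minus strand): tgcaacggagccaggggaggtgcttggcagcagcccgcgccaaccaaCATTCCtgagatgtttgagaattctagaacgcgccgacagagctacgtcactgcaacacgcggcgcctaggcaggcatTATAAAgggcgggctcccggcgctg
The box lies 90 to 81 bases before the start in Actg1, 227 to 218 in Vcl, 161 to 152 in Myl9 and 56 to 47 in Cnn2. Levels ranged among these 4 from 503 and 501 TPM in Vcl, which links integrins to actin, through 1034 and 1013 TPM in Cnn2, a non-muscle calponin, and 1093 and 1033 TPM in Myl9, the regulatory myosin light chain, to Actg1. Genes with the box were thus spread over more than a 10-fold range.

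Among the other secreted products, Inhba, which forms activin A, had 588 and 604 TPM. Csf1, the growth factor of macrophages, was the highest cytokine at 1155 and 1138 TPM. Il6, an inflammatory cytokine, had 13.8 and 12.5 TPM, and Lcn2, the lipocalin induced by inflammation, was lowest at 0.134 and 0.130 TPM. The highest matrix metalloproteinase, the membrane-bound Mmp14, had 504 and 489 TPM and lay below the inhibitors Timp1 and Timp2, the latter at 961 and 957 TPM. Mmp2, a gelatinase, had 119 and 117 TPM, and Mmp9, the gelatinase of inflammatory cells, had 2.71 and 2.13 TPM.

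Proteasome genes, whose product the cells had been treated against, ran from Psmb9 at a mean of 0.795 TPM to Psmd8 at 466 TPM. All 49 together held 0.470% ± 0.00539 of normalized FPK and 0.831% ± 0.00046 of TPM, with a median of 188 TPM, and 36 reached 100 TPM. The alpha ring of the 20S core had a median of 228 TPM over 7 genes, from Psma2 at 131 and 134 TPM to Psma7 at 310 and 314 TPM. The beta ring, which holds the catalytic sites, had a median of 255 TPM, from Psmb1 at 193 and 197 TPM to Psmb6 at 348 and 323 TPM. Psmb5, the chymotrypsin-like catalytic subunit, had 213 and 209 TPM. In each ring the highest and the lowest subunit were the same in both replicates. That order rests on the length of the reference transcript, which both replicates share. Psma2 had a mean of 15952.5 reads over 2911 bases, and Psma7 had 11780.6 reads over 914 bases. Psmb1 had 14153 reads over 1758 bases, and Psmb6 had 11044.6 reads over 798 bases. By reads, the lowest subunit in TPM thus lay above the highest in both rings. In the 19S cap that unfolds substrates, the 6 ATPases ran from Psmc2 at 196 and 191 TPM to Psmc3 at 272 and 265 TPM. The non-ATPase subunits ran from Adrm1, a ubiquitin receptor, at 117 and 113 TPM to Psmd8 at 466 and 467 TPM.

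Subunits that replace or load the core were lower. The immunoproteasome, an alternative core of immune cells induced by interferon, had 14.7 and 13.6 TPM of Psmb10, 5.70 and 6.14 TPM of Psmb8 and 0.910 and 0.681 TPM of Psmb9. Its highest gene was below the lowest subunit of the constitutive core in both libraries. Activators and inhibitors ranged from Psmf1, the inhibitor PI31, at 19.6 and 18.2 TPM to Psme2, part of the 11S activator, at 117 and 114 TPM. Assembly chaperones ranged from Psmg4 at 14.1 and 13.6 TPM to Pomp, the maturation factor of the 20S core, at 148 and 147 TPM. Nfe2l1, the factor NRF1 that drives proteasome genes, had 380 and 369 TPM. Ddi2, the protease that activates it, had 57.4 and 60.0 TPM, and Ngly1, the enzyme that strips its sugars, had 19.4 and 19.6 TPM.

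Of the ubiquitin genes, Rps27a, which fuses ubiquitin to a ribosomal protein, was highest with 1775 and 1878 TPM. Ubb, a polyubiquitin gene known to be induced by stress, was lowest with 416 and 383 TPM. Their ranges did not overlap. Vcp, the segregase that pulls ubiquitinated proteins from complexes, had 591 and 588 TPM. Sqstm1, the autophagy receptor p62, had 432 and 421 TPM, and Zfand2a, an arsenite-inducible partner of the proteasome, was lowest of its group at 41.5 and 41.4 TPM.

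Heat shock genes were led by constitutive and not by strictly inducible members. The 28 genes held 0.974% ± 0.00271 of normalized FPK and 0.876% of TPM, with a median of 128 TPM, and all 28 exceeded 10 TPM. Hsp90ab1, the constitutive HSP90, had 2043 and 2047 TPM. Hspa8, the constitutive HSP70, had 1641 and 1634 TPM, and Hsp90aa1, the inducible HSP90, had 1146 and 1169 TPM. The inducible HSP70 genes were far lower, with 30.8 TPM of Hspa1b in both replicates and 12.6 and 12.2 TPM of Hspa1a. These neighbours are nearly identical, so their split is uncertain. Dnajb1, the stress-induced HSP40, had 46.6 and 47.4 TPM, and Bag3, a co-chaperone of selective autophagy, had 72.1 and 72.6 TPM. The small heat shock proteins Hspb1 and Cryab had 313 and 311 TPM and 233 and 224 TPM. Hsf1, the master factor of this response, had 38.6 and 36.4 TPM. These levels were measured after an overnight culture that followed drug and sort, and their time course was not measured.

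A heat shock element core, GAANNTTC or TTCNNGAA on either strand, was present in 10 of the 21 heat shock promoters that could be read, or 47.6%, against 11.6% of all promoters. The 10 genes were Hspe1, Hspb1, Dnaja1, Hsph1, Fkbp4, Hspb8, Bag3, Chordc1, Hspa1b and Hspa1a. Hspa1b, Hspb1 and Hsph1 are shown, with the cores in capitals, as genes with a core at a low, a high and a middle level.
Hspa1b chr17:34959239-34959388 (minus strand): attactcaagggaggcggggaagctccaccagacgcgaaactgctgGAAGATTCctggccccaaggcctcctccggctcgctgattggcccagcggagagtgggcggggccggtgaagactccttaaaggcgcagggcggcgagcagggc
Hspb1 chr5:135887769-135887918 (plus strand): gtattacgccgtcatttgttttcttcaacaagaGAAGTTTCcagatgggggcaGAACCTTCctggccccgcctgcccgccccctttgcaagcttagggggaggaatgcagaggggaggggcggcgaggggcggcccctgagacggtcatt
Hsph1 chr5:149636337-149636486 (minus strand): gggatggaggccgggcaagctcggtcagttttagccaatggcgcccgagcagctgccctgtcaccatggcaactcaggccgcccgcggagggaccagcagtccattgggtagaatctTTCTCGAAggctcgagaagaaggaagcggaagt
Hspb1 holds a pair of cores, 117 to 110 and 97 to 90 bases before the start, and Hsph1, the HSP110 gene at 127 TPM in both replicates, holds its core 33 to 26 bases before. In Hspa1b the core lies 104 to 97 bases before the start.

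In the endoplasmic reticulum (ER), resident chaperones were abundant and stress sensors were not. The list of 20 ER stress genes held 0.578% ± 0.00652 of normalized FPK. Hsp90b1, the ER HSP90, had 1134 and 1120 TPM. Calr, calreticulin, had 987 and 979 TPM, and Hspa5, the ER HSP70 known as BiP, had 507 and 522 TPM. Sdf2l1, a gene closely tied to the unfolded protein response, was the lowest chaperone at 23.0 and 22.4 TPM. Of the sensors and factors, Xbp1 was highest at 86.4 and 84.9 TPM, and Eif2ak3, the kinase PERK, lowest at 9.65 and 10.5 TPM.

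CCAAT, on either strand, was present in 15 of 17 ER stress promoters, or 88.2%, against 38.5% of all. It forms part of the ER stress response element but was not confined to this list. CCAAT was also present in 22 of 29 cell cycle promoters, or 75.9%, and in 12 of 23 contractile promoters, or 52.2%. In the NRF2 list it was present in 5 of 19, or 26.3%. Hspa5 and Calr are shown, with each CCAAT (or ATTGG, its reverse) in capitals, because they hold 4 and 2 copies.
Hspa5 chr2:34771840-34772089 (plus strand): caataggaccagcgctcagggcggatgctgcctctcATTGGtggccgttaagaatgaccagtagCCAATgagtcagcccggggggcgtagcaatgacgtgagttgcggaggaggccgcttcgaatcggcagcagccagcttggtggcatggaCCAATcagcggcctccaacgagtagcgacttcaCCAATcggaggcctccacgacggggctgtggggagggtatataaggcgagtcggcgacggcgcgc
Calr chr8:84846982-84847131 (minus strand): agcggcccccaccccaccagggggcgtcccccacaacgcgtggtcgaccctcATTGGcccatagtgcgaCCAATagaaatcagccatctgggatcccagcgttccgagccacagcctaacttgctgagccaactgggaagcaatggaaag
The copies lie 214 to 210, 186 to 182, 98 to 94 and 65 to 61 bases before the start in Hspa5, and 148 to 144 and 131 to 127 bases before it in Calr.

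The integrated stress response, in which translation is throttled and ATF4 made, was represented by factors and targets alike. Atf4 had 274 and 266 TPM and exceeded every listed target but Phgdh in both replicates. Ddit3, the death-linked factor CHOP, had 60.5 and 59.0 TPM, and Atf3 had 6.23 and 6.65 TPM. Among targets, Phgdh, the first enzyme of serine synthesis, had 299 and 294 TPM, Asns, which makes asparagine, had 149 and 155 TPM, and Trib3, a pseudokinase, had 19.6 and 18.2 TPM. The secreted stress hormones were scarce: Gdf15 had 0.684 and 0.834 TPM and Fgf21 had 0.0775 and 0.151 TPM. Over the 20 genes the share of normalized FPK was 0.173% ± 0.00407.

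Targets of NRF2 made up 1.71% ± 0.0671 of normalized FPK and 1.25% of TPM over 20 genes, a share carried mostly by ferritin. Next to Ftl1, the heavy chain Fth1 had 1256 and 1299 TPM. Hmox1, heme oxygenase 1, had 633 and 615 TPM. Prdx1, a peroxide-removing enzyme, had 917 and 952 TPM, and Nqo1, a quinone reductase, had 101 TPM in both replicates. Gclm, the modifier subunit of the enzyme that starts glutathione synthesis, had 30.6 and 31.2 TPM, and Osgin1 was lowest at 4.32 and 4.30 TPM. Nfe2l2 itself had 115 and 111 TPM and Keap1, its negative regulator, 23.8 and 22.5 TPM. Promoters were read for the whole NRF2 list of 24 genes, the targets together with Nfe2l2, Maff, Mafg and Keap1. TGACNNNGC, the core of the antioxidant response element, was present on either strand in 8 of 19 promoters of that list. This is 42.1%, against 14.5% of all. The 8 genes were Prdx1, Mt2, Nfe2l2, Maff, Srxn1, G6pdx, Mafg and Gclm, of which Nfe2l2, Maff and Mafg were listed as factors and not as targets. Prdx1 and Gclm are shown as the highest and the lowest of the 8, with the core, here on the opposite strand, in capitals.
Prdx1 chr4:116685399-116685548 (plus strand): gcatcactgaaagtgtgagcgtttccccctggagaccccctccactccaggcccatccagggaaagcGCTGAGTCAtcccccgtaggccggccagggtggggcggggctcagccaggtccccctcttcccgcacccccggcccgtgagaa
Gclm chr3:122245357-122245506 (plus strand): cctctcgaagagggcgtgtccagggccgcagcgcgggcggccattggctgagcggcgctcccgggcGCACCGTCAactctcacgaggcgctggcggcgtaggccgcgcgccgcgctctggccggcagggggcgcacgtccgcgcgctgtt

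**Figure D5:**
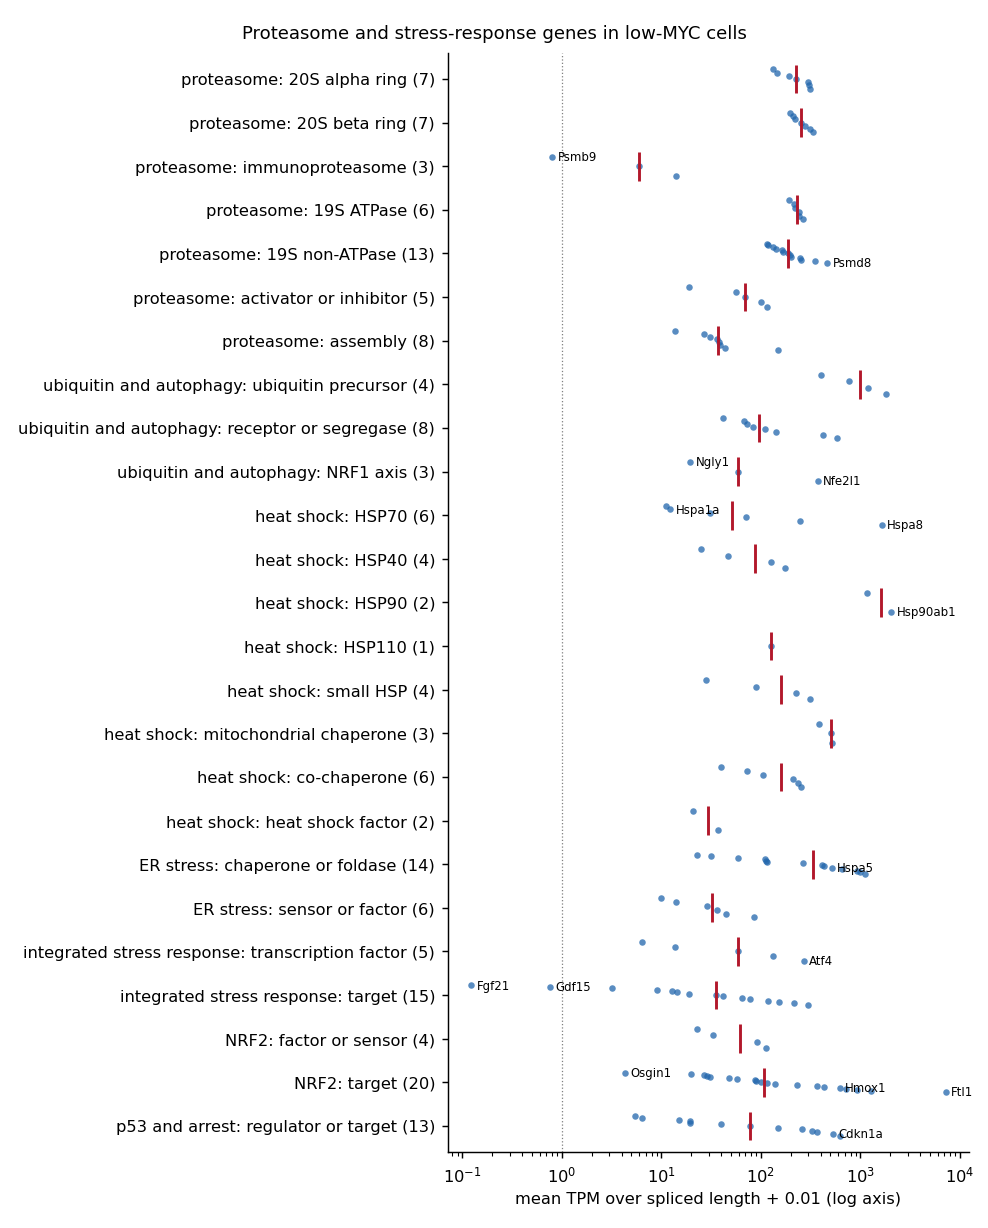
Mean TPM (+ 0.01, log axis) of each proteasome and stress-response gene in low-MYC cells, by role, with a red bar at the median and the number of genes in brackets. Proteasome core and cap subunits lie between 113 and 467 TPM in single replicates, whereas stress targets spread from Fgf21 to Ftl1.

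Genes of the p53 pathway were led by Ccng1, cyclin G1, with 621 and 620 TPM, and by Cdkn1a, the inhibitor p21, with 529 and 534 TPM. Mdm2, the ligase that degrades p53, had 324 TPM in both replicates. Sesn1 was lowest with 5.47 TPM in both, and Cdkn2a, the Ink4a/Arf locus, had 14.4 and 15.4 TPM. Immediate early genes were led by Klf6 at 241 and 245 TPM, with Jun at 105 and 109 TPM, Egr1 at 57.6 and 58.1 TPM and Fosb lowest at 2.89 and 3.32 TPM.

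Cell cycle genes were expressed alongside p21. All 38 reached 1 TPM and 37 reached 10 TPM, with a median of 65.7 TPM. Pcna, the sliding clamp of DNA replication, had 242 and 244 TPM, and Cdt1, which licenses replication origins, had 18.4 and 18.3 TPM. Top2a, topoisomerase II, had 128 and 127 TPM and Cenpf, a kinetochore protein, 13.2 and 14.1 TPM. Mki67, the proliferation antigen, had 48.7 and 50.8 TPM. Of the G1 regulators, Ccnd2, a D-type cyclin, was highest at 365 and 371 TPM and Cdk6 lowest at 9.12 and 9.28 TPM. In bulk RNA a smaller share of cycling cells and less mRNA per cycling cell cannot be told apart.

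Myc transcripts were present in cells sorted for low MYC-GFP, above the median gene. It had 118 and 115 TPM and stood at rank 1397 by TPM. By normalized FPK, with a mean of 9.84, it stood at rank 569. Mycl and Mycn, its relatives, had means of 6.51 and 1.28 TPM. Max, the obligate partner, had 64.0 and 63.6 TPM, below Myc in both replicates. Among the antagonists that compete for MAX, Mxd4 had 47.2 and 46.2 TPM and Mxd1 had 2.84 and 3.26 TPM. Genes whose proteins act on the far upstream element of Myc all exceeded 10 TPM: Puf60, which encodes the repressor FIR, had 127 and 123 TPM, Fubp1 had 102 and 103 TPM, Khsrp had 66.7 and 65.2 TPM and Fubp3 had 56.5 and 54.8 TPM. Of the genes that control MYC turnover, Gsk3b, the kinase that primes degradation, had 180 and 184 TPM, Fbxw7, the ligase adaptor that recognizes phosphorylated MYC, had 13.8 and 13.5 TPM, and Usp28, a deubiquitinase, had 9.81 and 10.4 TPM.

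Ribosomal protein genes held more of the TPM than any other list of nuclear genes followed. The 83 cytosolic genes held 12.1% ± 0.0486 of normalized FPK and 11.96% ± 0.0620 of TPM, but 4.43% ± 0.0258 of reads, since their mRNAs are short. All but Rpl39l, a paralog at 17.8 and 19.1 TPM, exceeded 100 TPM, and the highest was Rplp1, a stalk protein, at 4067 and 4100 TPM. Their many processed pseudogenes share their reads, so single members are uncertain. The 77 mitochondrial ribosomal proteins had a median of 42.2 TPM. In glycolysis Gapdh was highest at 3534 and 3275 TPM and Hk2, a hexokinase, was lowest at 20.9 and 21.1 TPM.

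Promoter sequence varied with transcript level in low-MYC cells. TATAAA on either strand was found in 13.2% of promoters of protein-coding genes under 0.1 TPM, in 5.65% of those between 10 and 100 TPM, and in 16.1% of the 93 promoters of genes at 1000 TPM or more. GGGCGG, a site of SP1, was found in 38.7%, 70.5% and 67.7% of the same classes. CpG dinucleotides, relative to the number expected from base composition, had medians of 0.377, 0.815 and 0.798. TATAAA was thus most frequent at both ends of the range, and CpG-poor promoters at the low end. The median spliced length was 3069, 3063 and 1148 bases and the median span was 25633, 25247 and 4761 bp, so the class at 1000 TPM or more consisted of compact genes.

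Chromatin readouts of the series come from other MEF samples and not from sorted low-MYC cells. TACh-seq, which maps chromatin open to nuclease, is given as a list of 4881417 reads whose columns name no library. The name of the list holds wt1 and peak, which points to wild-type MEFs. The labels attach it to the samples of wild-type MEFs and to those of MEFs with Fubp1 knockout plus Fubp2 knockdown. Beyond that name, nothing given with the list says which of them its reads come from. Whether reads outside called peaks were left out of the list is not known, so a gene without a listed read may still have had reads. Of 14585 autosomal protein-coding genes, 68.7% had a listed read within 500 bp of their start. Genes under 0.1 TPM had an upper quartile of 0 listed reads, and genes of 10 to 100 TPM had a median of 113. The share was 11.1% for genes under 0.1 TPM in low-MYC cells, 29.8% from 0.1 to 1 TPM, 69.1% from 1 to 10 TPM, 88.3% from 10 to 100 TPM and 90.4% at 1000 TPM or more. It rose steeply up to 10 TPM and little above that. Of the proteasome genes 43 of 48 had a read and of the heat shock genes 27 of 28, whereas of the macrophage genes 1 of 17 did and of the endothelial genes 0 of 8. Eef1a1 and Spp1 had 0 listed reads at the annotated start although both are abundant.

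FUBP1 ChIP-seq peaks of primary MEFs, 166 in the deposited list and all on chromosome 15, overlapped 65 of the 598 protein-coding genes of that chromosome (10.9%). The share was 4.07% for genes of 1 to 10 TPM, 10.8% for 10 to 100 TPM and 32.4%, 22 of 68 genes, for 100 to 1000 TPM. The 4 genes above 1000 TPM, Lgals1, which encodes galectin 1, Tuba1b, Tuba1a and Rpl8, were all overlapped by at least 1 base, and so was Myh9. Where 50% of the peak had to lie in the gene, 2 of these 4 were overlapped, Tuba1b and Tuba1a, and the share was 26.5% for 100 to 1000 TPM. Overlapped genes had a median of 66.4 TPM and the others of 10.3 TPM. Overlapped genes were also longer, with a median span of 36409 bp against 20068 bp, and the part of length in this difference was not tested.

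Precision followed depth. Genes with more than 10000 reads differed between the replicates by a median of 1.02-fold, and 99.04% of them agreed within 1.1-fold. From 100 to 1000 reads the median was 1.07-fold, from 10 to 100 reads 1.23-fold, and at up to 10 reads, which covers 3231 genes, 1.64-fold. Genes at 0 in either replicate were left out of these classes. Against counting error the spread grew with depth. The median squared difference was 1.23 times that expected from counting error at up to 10 reads, and 11.0 times above 10000 reads. Differences between genes of low level, such as the markers of other cell types, are therefore known to within a few reads only. Over all genes Spearman's rho between the replicates was 0.99, a description across genes of technical replicates.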

How the data were processed

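RNA-seq of 2 low-MYC libraries was used, grouped by sample label. The authors removed 3′ bases with a quality score under 20, aligned the reads to mm10 with TopHat, quantified them with Partek and divided by a spike-in score from 10 ERCC transcripts. The deposited signal values are normalized FPK per gene span. Reads were recovered as value times span over the step of 1 read, and TPM was computed with GENCODE M21 lengths. Of 19769 genes, 19639 were matched by position, 124 by name and 6 not at all. The 1 blank symbol is Myc, and 23 symbols had turned into dates. The deposited TACh table holds positions of reads with a mapping score that was not used, and the deposited FUBP1 list holds positions only. The authors aligned both with Bowtie2 and called peaks with SICER. Promoter sequences came from RefSeq for 10659 of 15118 protein-coding genes whose starts lay within 1000 bp.

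Errors are the SD of 2 technical replicates. No test was made, since a single group is described. Reads and TPM replaced a planned rescaling by exon length after the data were seen. The step was tested on simulated data. The libraries (members) and gene lists to describe were chosen with earlier results of these data known, although the label alone defined the libraries. Genes named are the most abundant, the highest and lowest of each role and the markers, and other genes named were chosen after their values were seen. Some genes are not reported here. Python 3.11.15, numpy 2.4.6, pandas 2.3.3, scipy 1.17.1, matplotlib 3.10.9, Biopython 1.88 and BLAST 2.17.0 were used.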

Additional observations from a re-analysis of the deposited data

How the results depend on the processing

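Shares depended on the length by which reads were divided. With 2 replicates, leaving out either one gives the value of the other, so it tests nothing beyond the SD: the share of the mitochondrial genome ran from 12.1% to 13.2%, and 4125 to 4170 genes reached 1 normalized FPK. No paired analysis was possible because a single group is described and no result comes from a test. Rescaling normalized FPK by exon length was not run, since the values are per genomic span; reads and TPM were chosen in its place after the data were seen. By TPM and by reads in turn, 379 and 687 genes held 50% of the total, the top 10 genes held 7.44% and 7.31%, protein-coding genes 95.1% and 98.2%, fibroblast markers 3.51% and 4.21%, other cell types 0.0574% and 0.0994%, contractile genes 6.06% and 5.23%, ribosomal proteins 11.96% and 4.43%, the mitochondrial genome 3.33% and 1.33%, proteasome subunits 0.831% and 0.579%, heat shock genes 0.876% and 0.952%, NRF2 targets 1.25% and 0.690%, the integrated stress response 0.154% and 0.144%, ER stress genes 0.600% and 0.745%, and collagen chains 0.517% and 1.41%. Cell cycle genes held 0.495% of reads.

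Without the mitochondrial genome the shares of normalized FPK were 15.6% for the top 10 genes, 81.6% for protein-coding genes, 2.32% for fibroblast markers, 0.0735% for other cell types, 7.76% for contractile genes, 13.9% for ribosomal proteins, 0.539% for proteasome subunits, 1.12% for heat shock genes, 1.96% for NRF2 targets, 0.198% for the integrated stress response, 0.662% for ER stress genes, 0.285% for collagen chains and 0.401% for cell cycle genes. The nuclear copies of mitochondrial DNA on chromosome 1, with 6.35% of all normalized FPK, were kept in these shares. With genes of at least 0.1 normalized FPK alone, protein-coding genes held 83.9% and other cell types 0.0633%. Ribosomal proteins held 12.2% and heat shock genes 0.979%. A minimum of 0.1 normalized FPK passed 10664 genes, one of 10 passed 561, and one of 1 TPM passed 12782. Where a FUBP1 peak had to lie in the gene by 50% of its length, 8.19% of genes were overlapped. Depth limits genes of few reads, and reads shared by near-identical copies limit the pseudogenes at any depth.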
